A study of Mus musculus with 2 samples.

Results

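The fibroblast growth factor (FGF) genes, their receptors and the Sprouty and Spred inhibitors were described in total RNA of left cerebral cortex. The tissue came from 2 B6CASTF1/J animals, male and 10 days old; the strain is the first cross of C57BL/6J and CAST/EiJ. The members were chosen by symbol alone: the numbered Fgf genes, Fgfr1 to Fgfr4, the receptor-like gene Fgfrl1, the Sprouty genes Spry1 to Spry4 and Spred1 to Spred3. In the annotation 33 genes of 55536 carried such a symbol, and Spry3 was not analysed here. Per the labels, 300 ng of RNA went into each library, ERCC spike-ins were added, and both libraries carry 1 donor identifier although the animals are numbered apart. They were read as 2 animals of 1 group, so there was no second group and no test between groups, and an SD over the libraries may be smaller than one over unrelated animals.

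Secreted FGFs bind tyrosine kinase receptors together with heparan sulfate, and the endocrine FGFs use klotho proteins in its place. The activated receptor is linked through adaptor proteins to the RAS-MAPK cascade, whose output raises transcription of the Sprouty genes, and Sprouty and Spred proteins in turn restrain that cascade. In cerebral cortex the pathway is known for patterning, for neurogenesis and for the growth of glia and synapses. A separate branch, the intracellular FGFs or FGF homologous factors, is not secreted and binds the tails of voltage-gated sodium channels.

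Replicate 1 held 31254528 expected counts and replicate 2 held 30218308, and at 1 kb of effective length 1 TPM (the length-corrected share of a gene in its library, on a fixed total) stood for 20.5 and 19.7 counts. Levels are TPM of the first deposited quantification, which divides by length, so that they can be compared between genes; a second deposited quantification of the same reads is named where it is used. All listed markers of glutamatergic neurons, GABAergic interneurons, astrocytes, oligodendrocyte precursors and microglia reached 1 TPM in each library, the threshold called detected below. Some marker lists differed between the libraries: the choroid plexus and ependyma list summed to 10.9 TPM in replicate 1 and 315 TPM in replicate 2, the erythroid list to 1158 and 801 TPM, the striatal list to 149 and 104 TPM, and the hippocampal list to 14.3 and 18.1 TPM. The counts of the libraries differed by more than sampling noise, with a chi-square of 5.05 per gene over 18515 genes.

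Of the 33 members, 19 were detected, and the same held for 59.6% of 22015 nuclear protein-coding genes. All 4 intracellular FGFs, 3 of 4 tyrosine kinase receptors, Fgfrl1, 3 of 3 Sprouty genes and 3 of 3 Spred genes were detected, against 5 of 18 secreted FGFs. Fgf12 and Fgf13 stood highest, at the 96.8th and 96.7th percentile of the protein-coding genes, followed by Fgfr3 at the 89.9th percentile. Next came Spred1, Spry2 and Spred2, at the 83.6th, 82.1st and 81.8th percentile. In the order of levels, the libraries of these neighbouring pairs overlapped and their order is not given: Fgf12 and Fgf13, Spry2 and Spred2, Fgf14 and Fgfr1, Fgfr1 and Spred3, Fgfrl1 and Spry4, and Fgf18 and Fgf10.

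**Figure D1:**
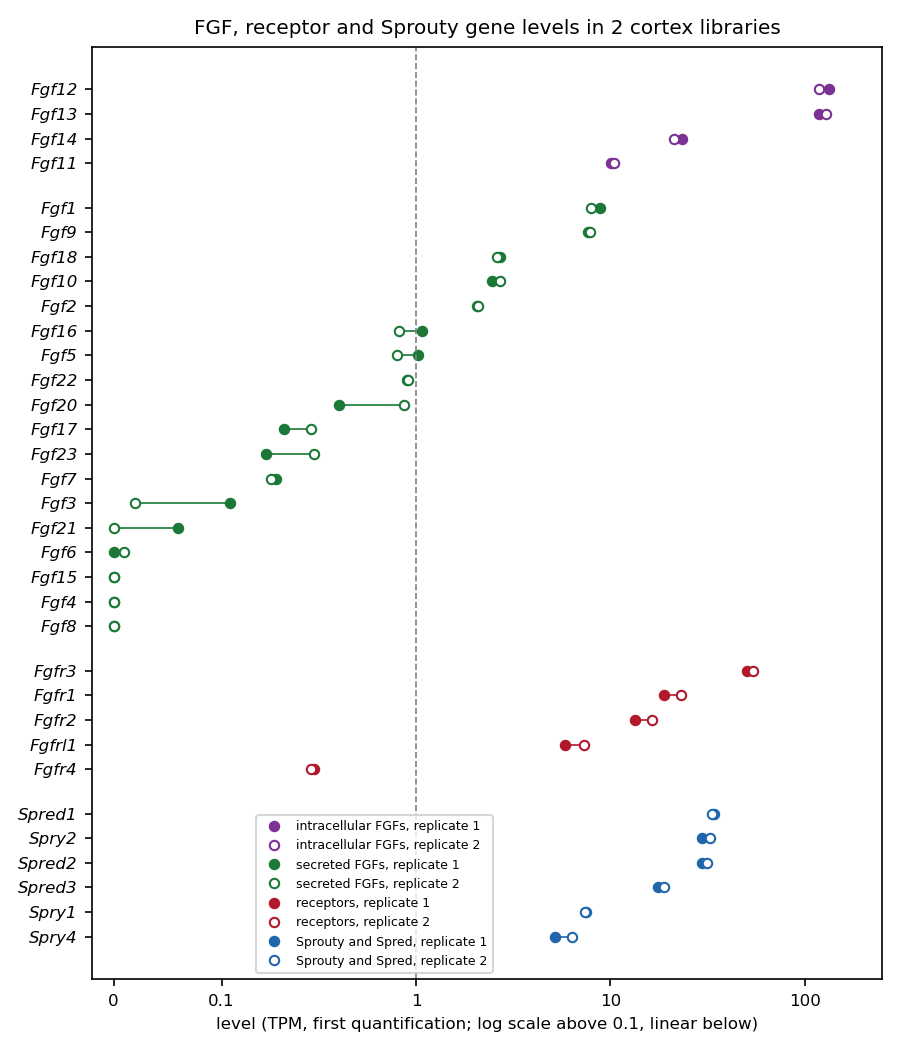
Level of each of the 33 genes in TPM of the first quantification on an axis that is logarithmic above 0.1 and linear below, with a filled point for replicate 1 and an open point for replicate 2. The dashed line marks 1 TPM; Fgf12 and Fgf13 lie above 100 TPM in both libraries, while 13 of the 14 genes that are not detected are secreted FGFs and the other is Fgfr4.

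The intracellular FGFs are encoded by Fgf11, Fgf12, Fgf13 and Fgf14, and each of the last 3 can begin its coding sequence at alternative first exons. A long A start is known to carry a segment that puts sodium channels into long-lasting inactivation, and B starts lack that segment. The first coding exons are shown because the forms described next are told apart by them, taken from the GENCODE M21 transcript sequences, on the minus strand of the GRCm38 (mm10) build, with the start codon in capitals. Fgf12 A lies at chr16:28444993-28445191, Fgf12 B at chr16:28752834-28752846, Fgf13 A at chrX:59133877-59134063, Fgf14 A at chr14:124192329-124192521 and Fgf14 B at chr14:124676510-124676717.
Fgf12 A start: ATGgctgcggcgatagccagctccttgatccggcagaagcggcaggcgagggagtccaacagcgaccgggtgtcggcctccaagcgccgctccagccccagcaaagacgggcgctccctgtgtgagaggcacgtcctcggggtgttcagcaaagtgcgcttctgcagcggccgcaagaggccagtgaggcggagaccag
Fgf12 B start: ATGgagagcaaag
Fgf13 A start: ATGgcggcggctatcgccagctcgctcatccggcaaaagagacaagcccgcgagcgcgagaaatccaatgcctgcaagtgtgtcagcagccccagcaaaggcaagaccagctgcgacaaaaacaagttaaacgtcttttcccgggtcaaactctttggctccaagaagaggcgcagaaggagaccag
Fgf14 A start: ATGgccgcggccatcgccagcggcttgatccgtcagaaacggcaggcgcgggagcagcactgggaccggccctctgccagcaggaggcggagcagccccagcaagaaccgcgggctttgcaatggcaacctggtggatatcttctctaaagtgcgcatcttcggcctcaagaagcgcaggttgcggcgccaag
Fgf14 B start: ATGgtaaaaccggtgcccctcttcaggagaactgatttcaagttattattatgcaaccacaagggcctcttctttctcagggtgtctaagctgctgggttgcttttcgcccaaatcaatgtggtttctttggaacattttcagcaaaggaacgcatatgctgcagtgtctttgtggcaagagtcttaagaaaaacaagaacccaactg

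The A exons of Fgf12 and Fgf14 shared 138 of 203 aligned bases (68.0%), while the A and B exons of Fgf14 shared 104 of 237 (43.9%). Behind the first exon, coding exons 2 to 4 were 111, 104 and 199 bases long in the main coding transcript of all 4 genes. Over these 414 bases the genes were 64.7% identical for Fgf11 and Fgf14, the least alike pair, and 75.1% identical for Fgf12 and Fgf14, the most alike.

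Fgf12 (ENSMUSG00000022523.10, chromosome 16, 28160098 to 28753068) had 132.9 TPM in replicate 1 and 118.6 TPM in replicate 2, a mean of 125.7 ± 10.1 (SD, n = 2). Fgf13 (ENSMUSG00000031137.17, chromosome X, 59062145 to 59568071) had 118.7 and 128.4 TPM, a mean of 123.6 ± 6.87 (SD, n = 2). The 2 genes were not separated in level, since the higher of them changed with the library. Fgf14 (ENSMUSG00000025551.13) had 23.4 and 21.3 TPM and Fgf11 (ENSMUSG00000042826.13) 10.0 and 10.4 TPM, so that the sets of values of these genes did not overlap with each other or with those of Fgf12 and Fgf13. Together the 4 genes summed to 285 and 279 TPM, which was 91.08% and 91.04% of the TPM of all 22 Fgf genes (mean 91.06 ± 0.035%, SD, n = 2). Of their partners, the sodium channel alpha subunits, all 4 listed were detected, with Scn2a at 160 ± 5.72 TPM and Scn8a at 77.9 ± 1.94 TPM (SD, n = 2).

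The genes differed in which start carried their RNA. For Fgf12 the B transcript Fgf12-205, coding for 181 residues, stood at 66.8 and 55.1 TPM, and the A transcript Fgf12-201, coding for 243 residues, at 20.6 and 23.0 TPM. The A form was thus 26.5 ± 4.15% of A and B together (SD, n = 2), the lower form in both libraries. Fgf13 had the reverse arrangement: its A transcript Fgf13-201, of 245 residues, stood at 100.2 and 96.7 TPM and made up 99.7 ± 0.41% of A and B. These shares leave out coding transcripts counted as neither A nor B. Such transcripts held 16.1 ± 2.41% of Fgf13 (22.2 ± 0.62% in the second quantification) and 5.31 ± 0.25% of Fgf12 (9.30 ± 1.74%). In Fgf13 they were led by Fgf13-205, at 12.6 and 14.3 TPM. Fgf14 resembled Fgf12, with the B transcript Fgf14-202 at 19.2 and 17.9 TPM, the A transcript Fgf14-201 at 4.2 and 3.46 TPM and an A share of 17.1 ± 1.19%. In the second quantification the A shares were 24.1% for Fgf12, 100% for Fgf13 and 15.9% for Fgf14, and none moved by more than its SD. For Fgf11 both annotated transcripts use 1 first coding exon, and they differ in the fourth, which is 199 bases long in Fgf11-202 (71.0 ± 4.47% of the gene) and 115 bases long in Fgf11-201.

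Part of the RNA of these genes was assigned to transcripts annotated as other than protein-coding, that is as retained introns, processed transcripts or targets of nonsense-mediated decay. In Fgf12 this part was 28.9 ± 0.29%, nearly all of it in Fgf12-206, a processed transcript of 2689 bases, and 22.9 ± 0.66% in the second quantification (SD, n = 2). In Fgf13 the 2 quantifications did not give the same picture: 3.85 ± 3.72% in the first and 26.5 ± 0.50% in the second. The gap lay in Fgf13-207, a processed transcript of 666 bases listed at 0 and 7.17 TPM in the first quantification, against 59.2 and 63.3 TPM in the second. The share of the A transcript in all RNA of Fgf13 moved with it, at 79.8 ± 6.45% in the first quantification and 51.3 ± 1.12% in the second.

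**Figure D2:**
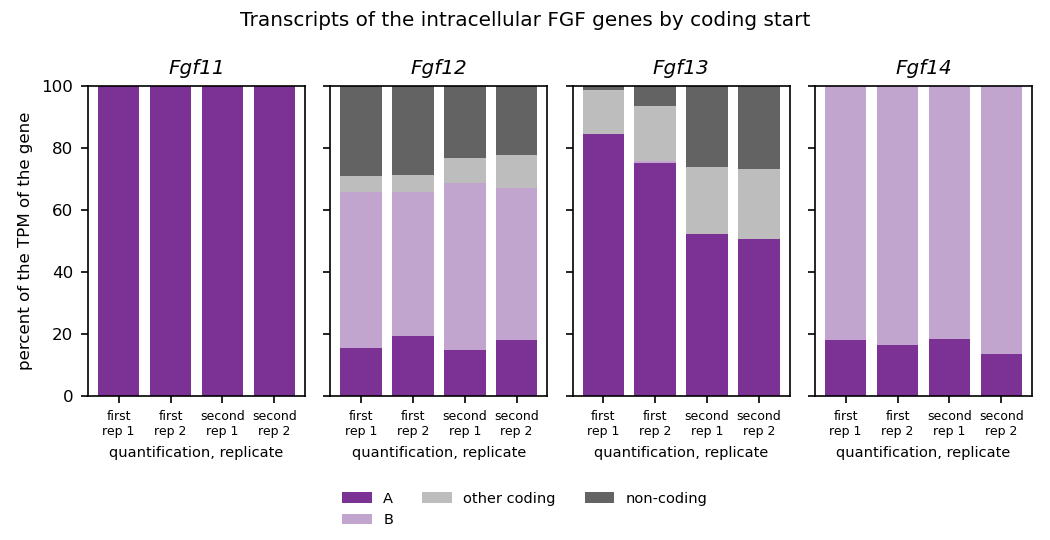
Percent of the TPM of Fgf11, Fgf12, Fgf13 and Fgf14 held by transcripts with the A start, the B start, other coding transcripts and transcripts annotated as non-coding, in each replicate of the first and the second quantification. The B start holds more than the A start in Fgf12 and Fgf14 in all 4 bars, the A start is the largest part of Fgf13, at 84.4% and 75.3% in the first quantification and 52.1% and 50.5% in the second, where its non-coding part is larger.

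The 18 secreted FGFs summed to 27.9 and 27.5 TPM, and Fgf1 and Fgf9 together held 58.4 ± 1.09% of it (SD, n = 2). Fgf1 (ENSMUSG00000036585.16), a ligand of all FGF receptors, had 8.88 and 7.98 TPM, and Fgf2 (ENSMUSG00000037225.13), the other member of its subfamily and a mitogen of neural progenitors, had 2.06 and 2.09 TPM. Fgf9 (ENSMUSG00000021974.15), which is made by neurons and acts on glia, had 7.64 and 7.85 TPM. Fgf1 was the higher of Fgf1 and Fgf9 in both libraries by less than 1.5-fold. Fgf18 (ENSMUSG00000057967.12), of the FGF8 subfamily, had 2.72 and 2.62 TPM from 55 and 51 counts, and Fgf10 (ENSMUSG00000021732.14), of the FGF7 subfamily and a ligand of the IIIb form of Fgfr2, had 2.46 and 2.71 TPM. The FGF7, FGF8 and FGF9 subfamilies thus had a single detected gene each, and the FGF4 subfamily and the hormones had none.

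The main transcript of Fgf1 was Fgf1-201, of 3981 bases and 155 residues, with 74.8% and 91.8% of the gene. The remainder in replicate 1 was largely Fgf1-205, a fragment of 384 bases at 1.78 TPM in replicate 1 and 0.48 TPM in replicate 2, and Fgf1 had 546 and 566 counts in all. In Fgf9 the transcript that codes for 208 residues, Fgf9-201, held 53.6 ± 2.15% and Fgf9-203, which codes for 91 residues, 35.6 ± 1.54% (SD, n = 2). In Fgf2 the longest transcript, Fgf2-208 of 5973 bases, held 49.9 ± 6.23%. A retained intron of 257 bases, Fgf2-207, held 14.4% in replicate 1 and 45.7% in replicate 2 at under 1 TPM, and the second quantification listed it at 0. These shares rest on 0.96 and 2.96 expected counts, at an effective length of 158 bases. Fgf2 shares 640 exon bases with Nudt6, a gene on the other strand at 3.77 and 4.12 TPM, and the strand setting of the quantification was not stated in any source at hand, so that reads of the pair cannot be told apart.

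Of the secreted FGFs that were not detected, 10 had a value above 0 and 3 were at 0 in both libraries. Fgf16 had 1.07 and 0.82 TPM, Fgf5 had 1.03 and 0.80 TPM, and Fgf22, known for organising excitatory synapses, had 0.90 and 0.91 TPM. Fgf16 and Fgf5 thus reached the threshold in replicate 1 alone, and Fgf22 in neither library. All 3 passed it in both libraries of the second quantification, which made 22 detected members. That quantification gave higher TPM in general, with a median ratio to the first of 1.53 over detected protein-coding genes. Fgf22 had 27 and 37 counts and shares 82 exon bases with Rnf126, a gene on the other strand at 44.65 and 45.45 TPM. Fgf20 had 0.40 and 0.87 TPM from 4 and 9 counts, and in the second quantification 0.24 and 0.056 TPM from 1 count in each library. It shares 202 exon bases with Micu3, a gene on the other strand at 40.3 and 37.9 TPM. Fgf17, Fgf23, Fgf7, Fgf3, Fgf21 and Fgf6 had at most 10 counts in any library. The endocrine FGFs Fgf15, Fgf21 and Fgf23 summed to 0.23 and 0.30 TPM.

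Fgf4, Fgf8 and Fgf15, known from embryonic development, were at 0 counts in both libraries of the first quantification. A count of 0 allows up to 3 counts, or 0.0906 and 0.0944 TPM for Fgf4, 0.178 and 0.186 TPM for Fgf8 and 0.144 and 0.150 TPM for Fgf15 in replicate 1 and replicate 2. These limits, like the intervals given for ratios, cover counting error only, because without molecular identifiers several reads may stem from 1 molecule. The second quantification gave Fgf8 5.004 and 3.005 estimated counts and Fgf15 3.02 and 5.72, and it gave Fgf4 none. All of the Fgf15 counts there were in Fgf15-203, a retained intron, and its coding transcripts were at 0. Fgf15 shares 761 exon bases with Gm26793, a gene on the other strand at 0.13 and 0.04 TPM.

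The FGF receptors are single-pass kinases with up to 3 immunoglobulin domains outside the cell. Fgfr3 (ENSMUSG00000054252.18, chromosome 5, 33721674 to 33737068), typical of astrocytes and their progenitors, was the highest receptor, with 50.7 and 54.1 TPM. Fgfr1 (ENSMUSG00000031565.18, chromosome 8, 25513654 to 25575718), found in neurons and glia, had 18.9 and 23.2 TPM. Fgfr2 (ENSMUSG00000030849.18, chromosome 7, 130162451 to 133123350), found in astrocytes and the oligodendrocyte lineage, had 13.4 and 16.4 TPM. Fgfrl1 (ENSMUSG00000008090.14, chromosome 5, 108692382 to 108706924), which lacks the kinase domain, had 5.85 and 7.36 TPM, and Fgfr4 (ENSMUSG00000005320.9, chromosome 13, 55152640 to 55168759) was not detected, with 0.30 and 0.29 TPM from 11 and 12 counts. The 5 genes kept this order in both libraries without overlap. Of their summed TPM, Fgfr3 held 55.1 ± 2.42%, Fgfr1 22.0 ± 1.17%, Fgfr2 15.6 ± 0.79%, Fgfrl1 6.92 ± 0.50% and Fgfr4 0.311 ± 0.036% (SD, n = 2).

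The third immunoglobulin domain is completed by one of a pair of exons, IIIb or IIIc, which set the ligands a receptor binds; IIIb is typical of epithelia and IIIc of mesenchymal and neural tissue. Both exons of Fgfr3 are shown because it was the highest receptor and the quantifications described next differ in how much of its RNA they assign to each, with capitals where the aligned exons hold the same base. IIIc, of 145 bases, lies at chr5:33732117-33732261 and IIIb, of 151 bases, at chr5:33731281-33731431, both on the plus strand (GRCm38, GENCODE M21 transcripts).
Fgfr3 IIIc: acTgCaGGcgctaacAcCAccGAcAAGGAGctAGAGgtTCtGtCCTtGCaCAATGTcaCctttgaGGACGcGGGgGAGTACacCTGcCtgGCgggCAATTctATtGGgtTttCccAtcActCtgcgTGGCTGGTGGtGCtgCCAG
Fgfr3 IIIb: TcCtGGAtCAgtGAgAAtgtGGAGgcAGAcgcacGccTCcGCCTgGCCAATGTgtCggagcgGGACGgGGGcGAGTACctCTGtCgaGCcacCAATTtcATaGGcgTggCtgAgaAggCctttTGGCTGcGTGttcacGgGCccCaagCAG

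Of 162 aligned columns 84 were identical (51.9%).

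In Fgfr1, transcripts counted with the IIIc exon summed to 12.6 and 13.5 TPM and those counted with the IIIb exon to 0.26 and 0 TPM. That is a IIIc share of 99.0 ± 1.43% (SD, n = 2). The IIIb sum was Fgfr1-208 alone, a target of nonsense-mediated decay that was counted under both exons. Over transcripts that code for 600 residues or more, the IIIc share of Fgfr1 was 100% in both libraries of both quantifications. Fgfr1-209, a target of nonsense-mediated decay at 0.74 and 1.44 TPM (2.35 and 3.90 TPM in the second quantification), was counted under neither exon. It runs past the IIIb exon and ends before the IIIc exon, so the IIIc share would be lower if it were counted as IIIb. In Fgfr3 the IIIc sums were 39.5 and 42.0 TPM and the IIIb sums 0.76 and 0.55 TPM, a IIIc share of 98.4 ± 0.42%. Of the TPM counted under these exons in the first quantification, both receptors were thus almost wholly of the IIIc form. Some retained introns in this region were counted under neither exon. They include Fgfr1-206, which starts inside the IIIb exon, at 0.98 and 2.26 TPM. Fgfr3-205, which runs past the positions of both exons, had 5.56 and 6.43 TPM. Fgfr2 carried more IIIb: 0.97 and 1.05 TPM, against 7.08 and 6.63 TPM of IIIc, a IIIc share of 87.1 ± 1.15%, lower in each library than in the other 2 receptors. The libraries shared no IIIb transcript of Fgfr2, which the SD does not show. Fgfr2-208 held all of it in replicate 1, and Fgfr2-211 (0.82 TPM) and Fgfr2-210 (0.23 TPM) in replicate 2. In the second quantification Fgfr2-206 led IIIb in replicate 1, at 1.23 TPM, and Fgfr2-211 in replicate 2, at 3.00 TPM. The second quantification gave 97.8 ± 0.47% for Fgfr1 and 83.3 ± 8.62% for Fgfr2, with 89.4% in replicate 1 and 77.2% in replicate 2, so that over all transcripts Fgfr3 and not Fgfr2 had the lowest IIIc share there.

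For Fgfr3 the second quantification gave a IIIc share of 70.1 ± 2.14%. The difference came from Fgfr3-213, a coding fragment of 668 bases that holds the IIIb exon, at 20.2 and 18.8 TPM in the second quantification and 0 in the first. Over full-length transcripts, those that code for 600 residues or more, the share was 98.3 ± 0.40% in the first quantification and 97.0 ± 0.38% in the second (SD, n = 2). Full-length transcripts with the IIIc exon held 73.6 ± 2.11% of Fgfr3 in the first quantification, and 40.6 ± 2.82% in the second, where coding fragments held 39.8 ± 1.05%.

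The forms also differed in their outer domains. The first immunoglobulin domain was present in 100% of the full-length TPM of Fgfr3, in 83.3 ± 2.66% of that of Fgfr1 and in 50.6 ± 1.32% of that of Fgfr2, and in the second quantification in 100%, 86.1 ± 0.74% and 61.0 ± 2.44% (SD, n = 2). For Fgfr2 the form with the domain was chiefly Fgfr2-215, of 840 residues, at 3.77 and 2.90 TPM, and the form without it Fgfr2-207, of 723 residues, at 3.08 and 2.67 TPM. Behind the first domain a short coding exon leads to the second domain. In Fgfr1 it is 84 or 90 bases long, and the longer version held 39.1 ± 6.50% of the full-length TPM (34.2 ± 2.55% in the second quantification). In Fgfr3 the exon is 54 bases long, and transcripts that skip it, which code for 782 residues, held 12.9 ± 0.27% (11.7 ± 0.60% in the second quantification).

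The most abundant transcript of Fgfr1 was Fgfr1-202, of 820 residues, with 37.2 ± 6.24% of the gene, and it held 37.1 ± 3.81% in the second quantification. Fgfr2-215 led Fgfr2 with 22.9 ± 7.33%, and 29.4 ± 7.32% in the second quantification (SD, n = 2). In Fgfr3 the leading transcript was Fgfr3-201 at 37.7 ± 0.79% in the first quantification but Fgfr3-210 at 26.2 ± 1.90% in the second, where Fgfr3-201 held 9.50 ± 4.14%. These transcripts share the same coding exons, so the protein named by the 2 quantifications, of 800 residues, is the same. Fgfrl1-201, of 529 residues, held 58.5 ± 8.16% of Fgfrl1 and 47.7 ± 15.4% in the second quantification. Transcripts annotated as other than protein-coding, targets of nonsense-mediated decay included, held 28.3 ± 2.79% of Fgfr1, 19.9 ± 1.96% of Fgfr3 and 31.9 ± 14.2% of Fgfr2. The Fgfr2 share was 21.8% in replicate 1 and 41.9% in replicate 2. In the second quantification these transcripts held 29.7 ± 2.80% of Fgfr1, 18.4 ± 3.79% of Fgfr3 and 20.4 ± 5.82% of Fgfr2. Fgfr2 shares 314 exon bases with Ctbp2, a gene on the same strand at 13.2 and 14.5 TPM. The coding fragment Fgfr2-217, of 182 residues, spans 130162451 to 133123350, whereas Fgfr2-215 lies within 130163709 to 130266191. Fgfr2-217 stood at 2.44 and 1.83 TPM, or 18.2% and 11.2% of Fgfr2, and is counted in the level of the gene.

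**Figure D3:**
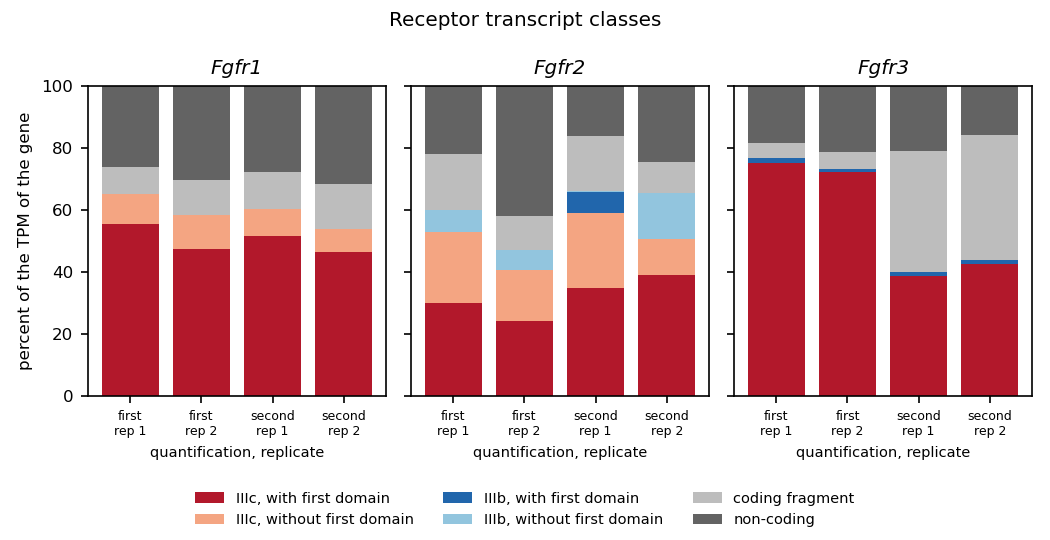
Percent of the TPM of Fgfr1, Fgfr2 and Fgfr3 held by full-length transcripts with the IIIc or IIIb exon, with or without the first immunoglobulin domain, by coding fragments and by other transcripts, in each replicate of both quantifications. The part labelled non-coding holds all transcripts annotated as other than protein-coding, targets of nonsense-mediated decay included. IIIc forms make up most of the full-length part in all 12 bars, Fgfr3 has no form without the first domain, and the coding fragments of Fgfr3 are larger in the second quantification.

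Sprouty proteins are inducible cytoplasmic inhibitors of receptor tyrosine kinase signalling. Spry2 (ENSMUSG00000022114.5) had 29.6 and 32.6 TPM, Spry1 (ENSMUSG00000037211.12) 7.46 and 7.41 TPM and Spry4 (ENSMUSG00000024427.7) 5.19 and 6.36 TPM, so Spry2 held most of the Sprouty sum of 42.3 and 46.4 TPM. Spred proteins are related inhibitors that bring the RAS-GTPase activating protein neurofibromin to the membrane. Spred1 (ENSMUSG00000027351.14) had 34.3 and 33.2 TPM, Spred2 (ENSMUSG00000045671.17) 29.8 and 31.4 TPM and Spred3 (ENSMUSG00000037239.8) 17.68 and 18.95 TPM. The Spred genes were closer to each other in level and their sum, 81.8 and 83.5 TPM, was the higher of the 2 families in both libraries. Nf1, which encodes neurofibromin, stood at 53.8 ± 1.54 TPM (SD, n = 2).

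Spry2 and Spry4 have 1 annotated transcript each. In Spred3 the coding transcript Spred3-201, of 408 residues, held 68.6 ± 2.62%, and retained introns and other non-coding transcripts held 31.4 ± 2.63%, or 37.0 ± 3.45% in the second quantification (SD, n = 2). No RNA of Spred1, Spred2 or Spry1 was assigned to a transcript annotated as other than protein-coding, since none is annotated. Of the 19 detected members, 10 had such transcripts. In 6 of them (Fgf12, Fgfr1, Fgfr2, Fgfr3, Spred3 and Fgf2) they held 10% or more in the first quantification, for Fgf2 on 0.96 and 2.96 counts. The second quantification had 7, with Fgf13 at 26.5% as well.

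The second quantification gave higher TPM for every detected member. The ratio of second to first was 1.45 at the median of the 19 detected members and 1.53 at the median of 13111 detected protein-coding genes. For the members it ran between 1.28 for Fgfr2 and 2.33 for Fgfr3, and 5% and 95% of the protein-coding genes lay below 1.21 and 2.22. Fgfr3 had 124 and 120 TPM there, although its counts differed little, with 3639 and 3665 in the first quantification and 3859 and 3880 in the second. Fgf13 had 232 and 242 TPM in the second quantification, above Fgf12 at 215 and 192 TPM in both libraries, whereas the first quantification did not separate them. How far the assignment to short transcripts sets these levels was not tested.

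**Figure D4:**
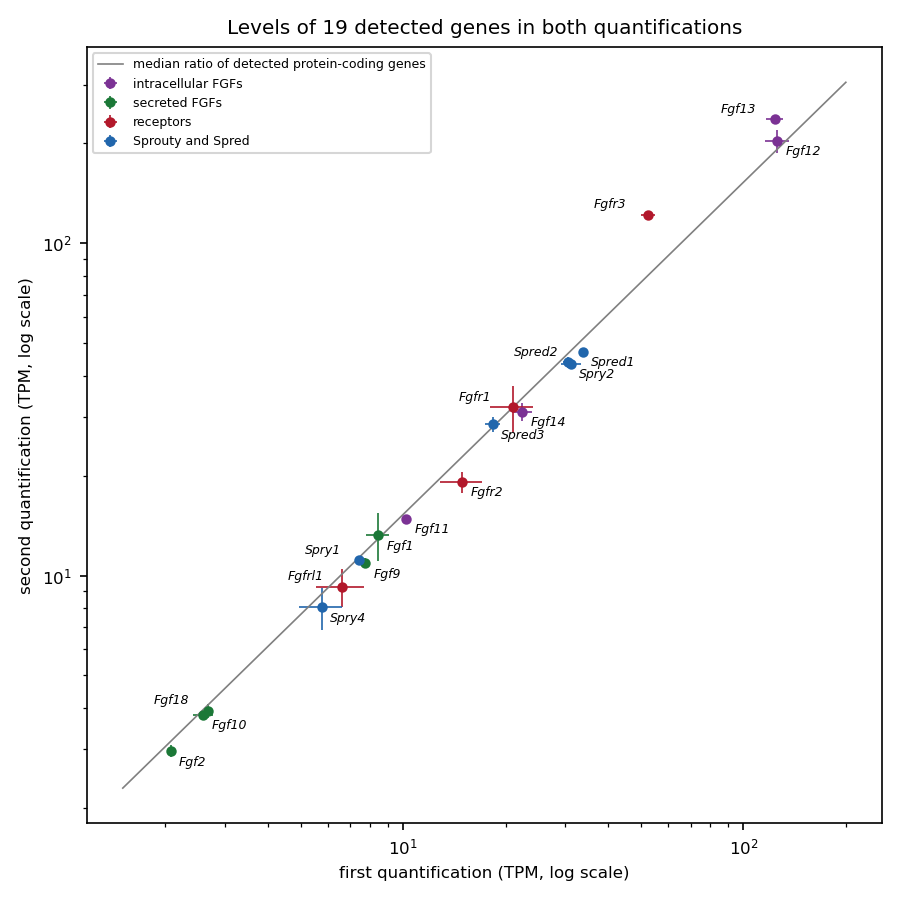
Mean level of the 19 detected genes in the second quantification against the first, in TPM on log axes, with error bars of 1 SD over the 2 libraries. The line is the median ratio of 1.53 over detected protein-coding genes; most genes lie near it, and Fgfr3 and Fgf13 lie above.

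The 2 libraries were then compared with each other, as the only contrast in the data. The ratio is log2 of replicate 2 over replicate 1 after adding 0.1 TPM, for genes whose expected counts averaged at least 100, which 18 members reached; it compares these libraries and has no replicate check. No member differed by 1.5-fold or more, against 1.24% of 12835 genes (159 genes), and the median ratio was 0.08 for the members and 0.04 for all genes. In bulk tissue, fewer cells of a type and less RNA per cell cannot be told apart. The ratios of the members lay between -0.16 for Fgf12 and 0.33 for Fgfrl1, with 13 above 0 and 5 below.

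By CPM, the expected counts scaled to the total of their library, the 95% Clopper-Pearson interval of the ratio left out 1 for 7 of the 18 members, and for 24.2% of all genes. Among the receptors the ratio was 1.15 for Fgfr1 (95% interval 1.07 to 1.25), 1.11 for Fgfr2 (1.00 to 1.22) and 1.04 for Fgfr3 (0.995 to 1.09), of which the last includes 1. Fgfr1 and Fgfr2 were also higher in replicate 2 under every other scaling and in the second quantification, whereas Fgfr3 turned to a log2 ratio of -0.04 in the second quantification. Spry4 stood at 1.22 (1.08 to 1.37) and Spry2 at 1.09 (1.01 to 1.18). Below 1 were Fgf12 at 0.942 (0.904 to 0.981), Fgf14 at 0.905 (0.843 to 0.972) and Spred1 at 0.946 (0.905 to 0.990). These differences were small beside the fold threshold. Fgfrl1, with the largest TPM ratio of the members, had 228 counts in each library and a CPM ratio of 1.03 (0.857 to 1.25). Its fragment Fgfrl1-204, of 438 bases, stood at 0.12 TPM in replicate 1 and 2.56 TPM in replicate 2, and its part in the TPM ratio was not tested. In the second quantification the log2 ratio of Fgfrl1 was -0.26. Fgf1 had a TPM ratio of -0.15 but a CPM ratio of 1.07 (0.952 to 1.21), so the 2 scales differed in sign. Astrocyte markers had a median ratio of 0.05, with 4 of 6 higher in replicate 2 and sums of 1093 and 1122 TPM. Oligodendrocyte precursor markers had a median of 0.08, with 5 of 5 higher and sums of 121 and 128 TPM, and myelin markers a median of -0.37, with 6 of 6 lower and sums of 355 and 304 TPM. Their part in the ratios of the receptors was not tested.

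**Figure D5:**
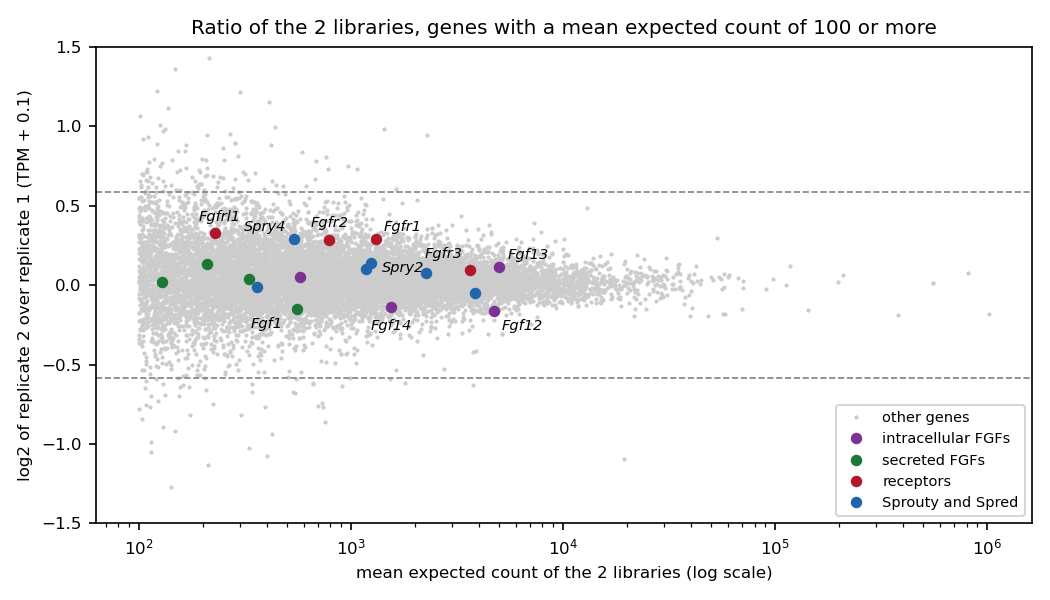
Log2 ratio of replicate 2 over replicate 1 (TPM + 0.1) against the mean expected count on a log axis, for genes with a mean count of 100 or more; members are coloured by role and 10 other genes lie outside the axis range. The dashed lines mark 1.5-fold; all 18 members lie between them, from -0.16 to 0.33.

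The rest of the pathway was read from lists of 60 genes outside the members, of which 58 were detected. The co-receptors of the endocrine FGFs, Kl and Klb, were the exceptions, with 0.84 and 1.74 TPM for Kl and 0.17 and 0.26 TPM for Klb. Of the 57 genes with a mean count of at least 100, 2 differed between the libraries by 1.5-fold or more, both higher in replicate 2 by TPM: Kl with a log2 ratio of 0.97 and the glypican Gpc2, at 1.77 and 3.04 TPM, with 0.75. By CPM the ratio was 2.03 for Kl (95% interval 1.56 to 2.66) and 1.39 for Gpc2 (1.08 to 1.80), so that Gpc2 passed 1.5-fold by TPM alone. The median log2 ratio of the 57 genes was 0.04, with 37 higher and 20 lower. Kl is itself a gene of the choroid plexus, of which the other 6 listed markers were all higher in replicate 2, with sums of 10.1 TPM in replicate 1 and 313 TPM in replicate 2 and down to 1 count in a library, and the part of that tissue in the Kl ratio was not tested.

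Heparan sulfate proteins, the co-receptors of the secreted FGFs, were led by the syndecan Sdc3 at 185 ± 2.96 TPM and the glypican Gpc1 at 60.8 ± 3.90 TPM (SD, n = 2). All 12 listed genes of heparan sulfate synthesis and editing were detected, with the sulfatase Sulf2 at 72.3 ± 4.48 TPM and the sulfotransferase Ndst1 at 68.0 ± 3.78 TPM. Among membrane modulators, Flrt2 had 29.5 ± 0.63 TPM and Flrt3 14.6 ± 0.36 TPM, and of the carriers that release FGFs from the matrix, Fgfbp3 had 4.79 ± 0.05 TPM and Fgfbp1 2.30 ± 0.07 TPM. Downstream of the receptors, the adaptor Grb2 stood at 94.0 ± 5.60 TPM, the phospholipase Plcg1 at 63.2 ± 3.85 TPM, and the kinase Mapk3 at 124 ± 1.84 TPM. All 5 listed targets of FGF signalling were detected, with the transcription factor Etv1 at 34.2 ± 3.97 TPM and the phosphatase Dusp6 at 30.1 ± 2.81 TPM.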

How the data were processed

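Total RNA sequencing libraries of 2 left cortices were used as the authors deposited them, on build mm10 with GENCODE M21, per the deposited file descriptions. Per the file headers, the first quantification, made from transcriptome alignments, holds expected counts, TPM and FPKM, and each transcript's percent of its gene; its effective length was the length minus 99 bases. Per the file headers, the second quantification, made from the reads, lists transcripts with estimated counts and TPM; gene values are their sums. The programs used, and whether strand was used, are not given in these sources. The reference is 1 parent strain, and alleles were not separated.

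Members were matched by symbol, and detection needed 1 TPM in both libraries. Full values were given for detected members, and for the 2 highest genes of each pathway list, those past 1.5-fold and those not detected; 1 such gene is not reported here. Receptor exons were found in the annotation as alternative coding exons between the same neighbours. Members, lists and tests were chosen with earlier results of these data known, and shares of exons, starts and non-coding transcripts after the values were seen. The ratio step was tested on simulated counts. Alternatives were other minimums, pseudocounts and scalings (edgeR 4.0.16 TMM, DESeq2 1.42.0 size factors, ERCC total), FPKM, posterior means, the second quantification and each library alone. Python 3.11.15, scipy 1.17.1 and Biopython 1.88 (alignments) were used.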

Additional observations from a re-analysis of the deposited data

How the results depend on the processing

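The count of detected members was 22 at 0.5 TPM, with the second quantification and with TPM rescaled to nuclear protein-coding genes, 19 at 2 TPM, and 19 to 21 in a single library. No member was past 1.5-fold with a pseudocount of 1, a count minimum of 20, the second quantification or any of the 3 count scalings; without a count minimum there were 3 (Fgf20, Fgf3 and Fgf21, with at most 9 counts in a library). The scalings moved the median ratio of all genes by less than 0.1 on the log2 scale.

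The intracellular share of Fgf abundance was 92.2% in the second quantification, 89.4% with posterior means and 89.3% with counts not divided by length. The receptor shares in the second quantification were 66.7% for Fgfr3, 17.5% for Fgfr1, 10.5% for Fgfr2, 5.07% for Fgfrl1 and 0.206% for Fgfr4. With counts they were 61.0% for Fgfr3, 13.2% for Fgfr2, 3.81% for Fgfrl1 and 0.192% for Fgfr4, and with posterior means 0.566% for Fgfr4. The order of the 5 receptors was the same in each. In the second quantification Fgfr3-201 held 9.50%, Fgfr4-201 76.0% and Fgfrl1-201 47.7% of their genes. With single libraries Fgfr4-201 ran between 48.2% and 59.9%, and Fgfr4-202 led in replicate 1. The cause of these shifts was not tested. The level of all 19 detected members moved by more than 1 SD in the second quantification and with rescaling. Alternatives on exon, start and non-coding shares were chosen after seeing the data. No paired analysis was possible because the design has 1 group.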
